A study of Homo sapiens with 6 samples.

Results

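A set of 9 genes of blood clotting and clot dissolution that monocytes are known to express were followed in THP-1 cells in which NFIC had been knocked down. They are THBD, F3, F13A1, PLAU, PLAUR, SERPINB2, TFPI, PROCR and THBS1, and they were picked out of the table by gene name. All 9 were found among the 33981 genes of the deposited table, and 8 of them passed the filter on low counts. The cell line THP-1 grew from the blood of a patient with acute myeloid leukemia (AML) and keeps features of monocytes, and NFIC (nuclear factor I-C) is a transcription factor of the NFI family. The 3 samples (C1, C3 and C4) had been infected with a lentiviral vector carrying scrambled shRNA, and 3 samples (N1, N2 and N3) with a vector carrying shRNA to NFIC, called sh494 by the study. No other treatment is named for either group. GFP-positive cells were sorted 4 days after infection and sequenced as bulk RNA. The labels call the control a scrambled shRNA, as do the study's results, while its methods describe a GFP only vector, and the labels are followed here. The study's text also names a control C2 where the labels and the table have C3. Since 1 shRNA was sequenced, effects of losing NFIC and effects of this shRNA on other transcripts cannot be told apart. The labels do not say whether the 3 samples of a group came from separate infections, so the p-values measure the spread between these samples, which may be technical.

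Clotting on a monocyte starts when tissue factor (F3) binds factor VII, and it is held back by tissue factor pathway inhibitor (TFPI) and by the protein C system, in which thrombomodulin (THBD) and the endothelial protein C receptor (PROCR) sit on the cell surface. Factor XIII, whose A subunit is encoded by F13A1, crosslinks fibrin. Clots are dissolved by plasmin, which urokinase (PLAU) generates on its receptor (PLAUR). The inhibitor PAI-2 (SERPINB2) restrains urokinase. Thrombospondin-1 (THBS1) is a matrix protein that platelets release and that binds several of these factors. Monocytes are the main blood cells in which tissue factor can be induced.

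The site of the shRNA is shown because the comparison rests on it, with the 7 bases that would pair with bases 2 to 8 of the guide strand in capitals.
sh494: gatggacaagtcaCCATTCAa
This sequence of 21 bases occurred without mismatch in 7 of 7 protein-coding transcripts of NFIC in GENCODE release 44. In the members the closest stretch had 6 mismatches, in F3 and THBS1, and the others had 7 to 9. The 7 capital bases occurred in a transcript of SERPINB2, TFPI and THBS1, and also in 23.3% of 19676 protein-coding genes. These matches describe letters and no effect.

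The RefSeq table of promoters (GRCh38.p14) held an entry for 8 of the 9 members, and THBD was not matched. The 250 bases before the start site are shown for the 3 members that were lower with NFIC shRNA and whose window touches no exon of the gene itself. Capitals mark matches on either strand to TGANTCA (the AP-1 site), GGGCGG (the GC box) and TATAAA (the TATA box).
F3 (chr1:94541760-94542009, minus strand): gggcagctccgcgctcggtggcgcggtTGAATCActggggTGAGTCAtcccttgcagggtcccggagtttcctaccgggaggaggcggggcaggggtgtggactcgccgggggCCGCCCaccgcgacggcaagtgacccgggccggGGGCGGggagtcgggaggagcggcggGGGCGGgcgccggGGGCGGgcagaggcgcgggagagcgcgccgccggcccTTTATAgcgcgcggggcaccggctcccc
PROCR (chr20:35171822-35172071, plus strand): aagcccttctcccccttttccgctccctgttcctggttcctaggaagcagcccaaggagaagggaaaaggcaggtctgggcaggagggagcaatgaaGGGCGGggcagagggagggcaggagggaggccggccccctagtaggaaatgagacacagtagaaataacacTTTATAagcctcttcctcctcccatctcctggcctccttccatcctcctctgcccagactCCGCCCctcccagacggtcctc
SERPINB2 (chr18:63887455-63887704, plus strand): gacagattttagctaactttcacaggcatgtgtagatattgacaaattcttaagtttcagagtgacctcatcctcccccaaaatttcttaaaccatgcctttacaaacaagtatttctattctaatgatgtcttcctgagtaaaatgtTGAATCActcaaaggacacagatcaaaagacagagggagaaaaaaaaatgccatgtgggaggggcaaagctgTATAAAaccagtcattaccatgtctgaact
The F3 window held 2 AP-1 matches, 4 GC boxes and 1 TATA box, the SERPINB2 window 1 AP-1 match and 1 TATA box, and the PROCR window 2 GC boxes and 1 TATA box. In the F3 window 73 bases lie in an exon of another annotated RNA, ENSG00000288736. Over the 9 windows of the 8 members, since PLAU has a pair of start sites, AP-1 was matched in 3, the GC box in 4 and the TATA box in 3. These motifs were found in 6.59%, 42.5% and 10.8% of 34941 promoter windows of the same length. The full NFI palindrome, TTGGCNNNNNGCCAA, was in none of the 9 windows and in 0.0286% of all windows. Its half-site TTGGC, which the palindrome contains on each strand, was in 2 of the 9 windows, those of F13A1 and THBS1, and in 40.8% of all. These matches describe letters in a short window only.

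Total counts were 20369543 to 24809720 per sample, so that 3 counts, taken as the smallest detectable amount, are worth 0.121 to 0.147 CPM (counts scaled to library size with TMM factors). Such limits cover counting error only. NFIC itself, the target, was at 42.1, 41.4 and 42.2 CPM in C1, C3 and C4 and at 19.4, 22.3 and 21.4 CPM in N1, N2 and N3, with no overlap between the groups. Its log2 fold change, always given here as NFIC shRNA relative to scrambled, was -0.99 (SE 0.0723, edgeR quasi-likelihood test, adjusted p = 3.73e-09). Of the 12 monocyte markers 11 were tested, of which 4 were higher and 4 lower, beside 29.6% and 30.3% of all genes tested, and LYZ, the lysozyme gene, was the highest, with a mean of 756 CPM over the 6 samples. Their summed level was 1484 to 1619 CPM in the scrambled and 1747 to 1937 CPM in the NFIC shRNA samples. LYZ held the largest part of these sums, with group means of 572 and 940 CPM. CD68 and CSF1R fell from 261 to 130 and from 219 to 146 CPM, while MNDA rose from 169 to 242 CPM. The sum therefore does not stand for the markers as a group. Among markers of cells other than monocytes that also make clotting proteins, CDH5 of endothelium and PF4 and PPBP of platelets are not listed in the table. Others were detected. Of the 11 endothelial and the 11 megakaryocyte and platelet markers, 6 and 7 had a mean of at least 10 counts. PECAM1 and GP1BB were the highest of these lists, with means of 202 and 10.4 CPM over the 6 samples. The samples are sorted cells of the THP-1 line, so these markers are read as transcripts and not as a count of other cells. In bulk RNA, fewer cells expressing a gene and less RNA per cell cannot be told apart.

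Among the 8 tested members, 5 (THBD, PROCR, F13A1, F3 and SERPINB2) were lower with NFIC shRNA and 2 (PLAU and PLAUR) were higher at an adjusted p under 0.05. THBS1 did not pass. Over all 19182 genes tested, 30.3% were called lower and 29.6% higher. The median log2 fold change of the 8 members was -0.63, beside -0.01 for all genes tested. The members were chosen with earlier results of these data known, so this contrast does not test a shift of the set.

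**Figure D1:**
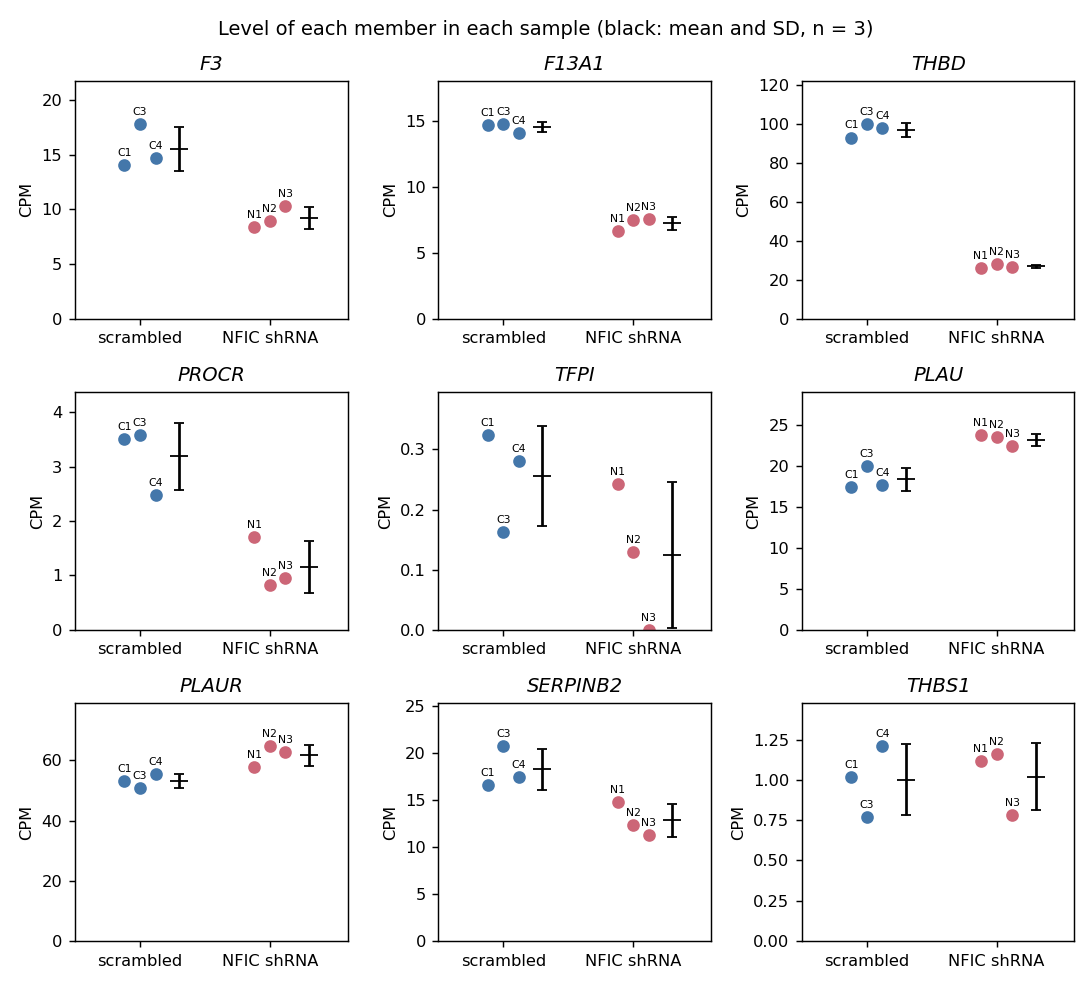
Level of each of the 9 members in each sample. Each panel plots CPM (linear axis from 0, own scale) for the 3 scrambled samples in blue and the 3 NFIC shRNA samples in red, and the black mark gives the mean with its SD. The groups overlap for TFPI and THBS1, and THBD shows the widest gap, with 93.0 to 100 CPM against 26.0 to 27.9 CPM. How many of all genes tested had groups without overlap was not counted. A lack of overlap is therefore not read, here or below, as particular to the members.

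F3 encodes tissue factor, the receptor that starts clotting. The scrambled samples C1, C3 and C4 had 14.0, 17.8 and 14.7 CPM, while N1, N2 and N3 had 8.34, 8.96 and 10.3 CPM. The groups did not overlap, and C3 was the highest of its group and N3 of the other. The means were 15.5 ± 2.04 and 9.21 ± 1.01 CPM (SD, n = 3 each), so that the NFIC shRNA mean was 59.3% of the scrambled mean. The log2 fold change was -0.75 (SE 0.115, 95% interval -0.99 to -0.51, edgeR adjusted p = 2.2e-05), and 13.9% of the genes tested had a lower one. F3 lies on the minus strand of chromosome 1 from 94529173 to 94541759.

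F13A1, the catalytic subunit of the fibrin-crosslinking factor, was at 14.7, 14.8 and 14.1 CPM in the scrambled and 6.65, 7.50 and 7.58 CPM in the NFIC shRNA samples. The scrambled samples lay close together, with an SD of 0.373 around a mean of 14.5 CPM, and N1 was the lowest of all 6. The NFIC shRNA mean of 7.24 ± 0.519 CPM was 49.8% of the scrambled mean. The log2 fold change of -1.0 (SE 0.101, edgeR adjusted p = 1.99e-07) was close to that of NFIC. F13A1 occupies chromosome 6 from 6144084 to 6321013, on the minus strand.

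THBD showed the largest difference of the 9. Thrombomodulin binds thrombin and turns it towards activation of protein C. The 3 scrambled samples were at 93.0, 100 and 98.0 CPM and the 3 NFIC shRNA samples at 26.0, 27.9 and 26.5 CPM. In counts these were 2012, 2466 and 2098 against 536, 647 and 612, the most reads of any member in the scrambled group. The means were 97.1 ± 3.68 and 26.8 ± 0.972 CPM (SD, n = 3 each), a level of 27.6% of the scrambled mean. The log2 fold change was -1.86 (SE 0.0611, 95% interval -1.99 to -1.73, edgeR adjusted p = 4.14e-13), and 1.64% of the genes tested had a lower one. THBD, on chromosome 20 from 23045633 to 23049672 on the minus strand, is also in a heat map of genes that the study chose on these samples, so its direction is not independent of that choice.

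PROCR presents protein C to the thrombin-thrombomodulin complex. Its levels of 3.51, 3.58 and 2.48 CPM in the scrambled samples stood against 1.70, 0.819 and 0.953 CPM with NFIC shRNA. These rest on 76, 88 and 53 counts and on 35, 19 and 22 counts, so the relative spread was the widest among the called members. The groups did not overlap, with C4 and N1 nearest to each other. The log2 fold change was -1.48 (SE 0.256, 95% interval -2.02 to -0.94, edgeR adjusted p = 8.91e-05). PROCR lies on chromosome 20 from 35172072 to 35216240 on the plus strand, where the annotation also places MMP24OS and AL356652.1 on the opposite strand. MMP24OS was counted 276, 299 and 319 times with scrambled and 236, 274 and 273 times with NFIC shRNA and did not pass (log2 fold change -0.18, edgeR adjusted p = 0.135). AL356652.1 was counted 34, 18 and 16 times with scrambled and 16, 6 and 7 times with NFIC shRNA (log2 fold change -1.20, edgeR adjusted p = 0.0263). The library kit does not mark strand, so reads of such a pair cannot be told apart where they overlap.

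TFPI, the inhibitor of the tissue factor complex, was barely detected. Its counts were 7, 4 and 6 in C1, C3 and C4 and 5, 3 and 0 in N1, N2 and N3, and the levels did not exceed 0.324 CPM. N2 was at the limit of 3 counts and N3 below it. TFPI failed the filter on low counts and was not tested with the others, and when every gene with a count was fitted, its log2 fold change was -1.03 (SE 0.775, 95% interval -2.55 to 0.49, edgeR adjusted p = 0.353). A difference was not detectable at this depth.

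The urokinase system moved in both directions. PLAU, which encodes urokinase, had 17.5, 20 and 17.7 CPM with scrambled shRNA, against 23.8, 23.5 and 22.4 CPM with NFIC shRNA. The groups were separated by the gap between C3 and N3. The NFIC shRNA mean was 126% of the scrambled mean, with a log2 fold change of 0.34 (SE 0.0820, 95% interval 0.16 to 0.51, edgeR adjusted p = 0.0019). C10orf55, an RNA annotated on the opposite strand of the PLAU locus (chromosome 10 from 73909177 to 73917496), had 130, 192 and 142 counts against 198, 197 and 213, with a log2 fold change of 0.41 (edgeR adjusted p = 0.00837). As for PROCR, reads of the pair cannot be told apart where they overlap.

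PLAUR, the receptor that holds urokinase on the cell surface, was at 53.0, 50.8 and 55.5 CPM in the scrambled and 57.8, 64.7 and 62.6 CPM in the NFIC shRNA samples. C4 and N1 were nearest, and the groups did not overlap. The log2 fold change of 0.22 (SE 0.0627, 95% interval 0.09 to 0.35, edgeR adjusted p = 0.0063) was the smallest of the called members, and 32.5% of the genes tested had a higher one. PLAUR lies on chromosome 19 from 43646095 to 43670547 on the minus strand.

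SERPINB2 encodes PAI-2, a urokinase inhibitor that monocytes make in large amounts when stimulated. It was at 16.6, 20.7 and 17.4 CPM in C1, C3 and C4 and at 14.8, 12.3 and 11.3 CPM in N1, N2 and N3. The lowest scrambled sample, C1, and the highest NFIC shRNA sample, N1, were 16.6 and 14.8 CPM. The mean fell to 70.3% of the scrambled mean (18.2 ± 2.18 to 12.8 ± 1.79 CPM, SD, n = 3 each), with a log2 fold change of -0.51 (SE 0.111, edgeR adjusted p = 0.000716). SERPINB2 is on the plus strand of chromosome 18 from 63871692 to 63903888, and ENSG00000289724, annotated over it on the same strand, is not listed in the table.

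THBS1 was low, at 1.02, 0.772 and 1.21 CPM in the scrambled and 1.12, 1.16 and 0.780 CPM in the NFIC shRNA samples. The groups overlapped throughout, on 18 to 27 counts per sample. The log2 fold change was 0.03 (SE 0.295, 95% interval -0.59 to 0.65, edgeR adjusted p = 0.929), and the interval leaves room for changes of either sign.

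**Figure D2:**
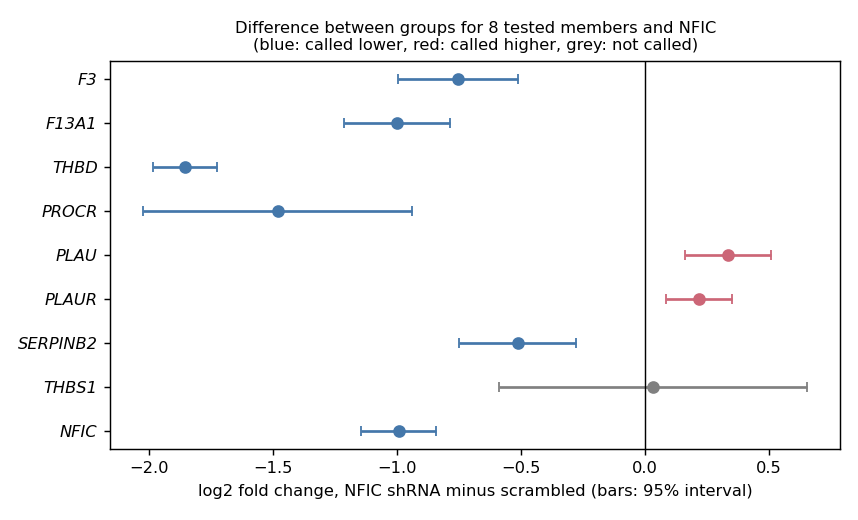
Log2 fold change of NFIC shRNA relative to scrambled for the 8 tested members and for NFIC, with 95% intervals from edgeR. Blue marks genes called lower, red genes called higher and grey a gene not called. THBD at -1.86 lies farthest from 0, PLAU and PLAUR lie at 0.34 and 0.22, and the interval of THBS1 spans 0.

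The scrambled sample C3, the most deeply sequenced, was the highest of its group for F3, SERPINB2, PROCR, PLAU, THBD and F13A1, by 0.21, 0.19, 0.18, 0.12, 0.05 and 0.03 above the group mean on the log2 scale. It was the lowest for PLAUR and THBS1, at -0.06 and -0.35. In the other group N1 was the highest for PROCR, SERPINB2 and PLAU and the lowest for F3, F13A1, THBD and PLAUR. The part of depth in these deviations was not tested.

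Levels were compared between genes per length, on the deposited FPKM values. In the scrambled samples THBD was the highest, at a mean of 23.7 ± 0.952 FPKM (SD, n = 3), before PLAUR at 11.8 ± 0.544 FPKM. SERPINB2, PLAU and F3 followed at 6.57, 6.15 and 5.31 FPKM. The ranges of the 3 samples overlapped between SERPINB2 and PLAU and between PLAU and F3. Within each of the 3 scrambled samples the order was the same, with SERPINB2 above PLAU and PLAU above F3. F13A1 (3.15 FPKM), PROCR (1.86 FPKM), THBS1 (0.108 FPKM) and TFPI (0.0215 FPKM) were each below the gene before them in every sample. In the NFIC shRNA samples PLAUR was first at 13.8 ± 0.840 FPKM and PLAU second at 7.86 ± 0.193 FPKM, and THBD followed at 6.62 ± 0.245 FPKM. In that group no neighbours overlapped. The 5 lowest places were held by F3 and the genes below it in both groups.

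**Figure D3:**
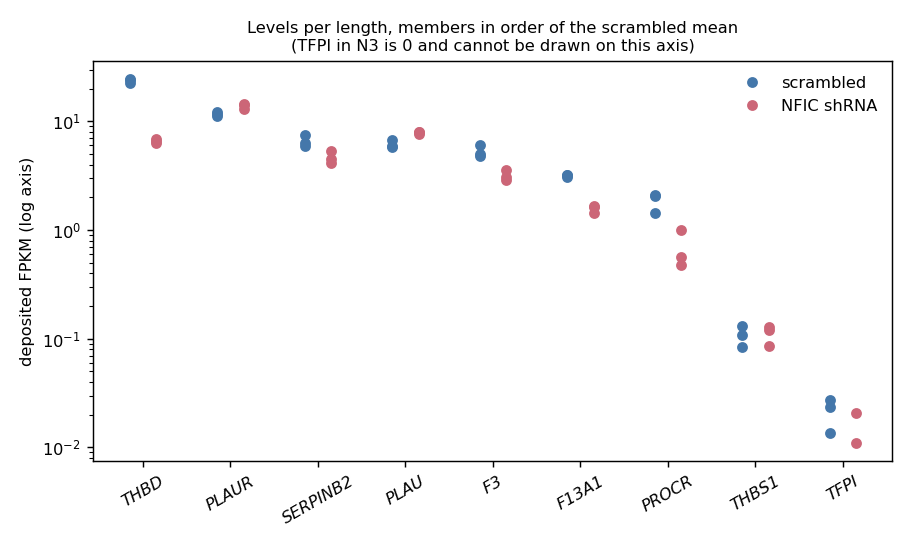
Deposited FPKM of the 9 members on a log axis, in the order of the scrambled mean, with scrambled samples in blue and NFIC shRNA samples in red. THBD leads the scrambled samples at 22.7 to 24.5 FPKM and lies below PLAUR and PLAU in the NFIC shRNA samples. The TFPI value of N3 is 0 and is not drawn.

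Ratios within a sample compare genes without the scaling of libraries. The ratio of PLAU to SERPINB2 in counts per kilobase, protease to inhibitor, was 0.981, 0.897 and 0.942 with scrambled shRNA, against 1.49, 1.77 and 1.84 with NFIC shRNA. The ratio was 1.80-fold higher with NFIC shRNA, with no overlap (log2 difference 0.85, exact permutation test, two-sided p = 0.1, the smallest that 3 against 3 samples allow). The ratio of THBD to F3, anticoagulant cofactor to initiator, was 4.74, 4.01 and 4.76 against 2.23, 2.22 and 1.84. It was 2.15-fold lower, again with no overlap (log2 difference -1.11, exact permutation test, two-sided p = 0.1). Both genes were lower with NFIC shRNA, and the change of the ratio followed the larger fall of THBD in these samples.

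**Figure D4:**
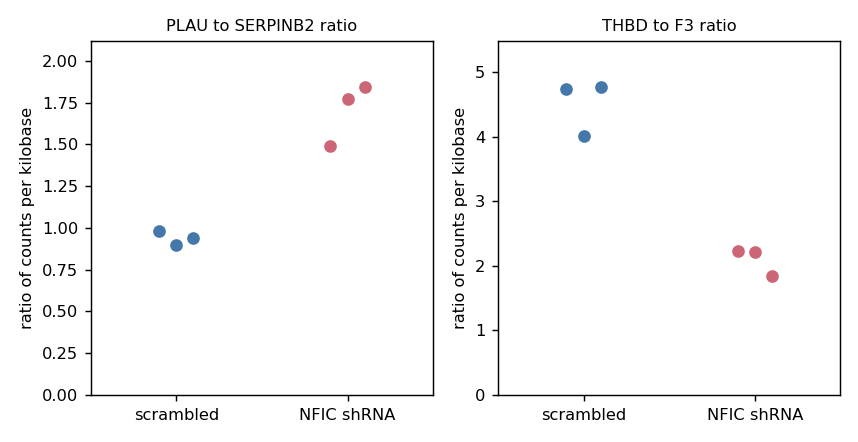
Ratio of PLAU to SERPINB2 (left) and of THBD to F3 (right) in counts per kilobase, 1 point for each sample, on linear axes from 0. The PLAU to SERPINB2 ratio is under 1 with scrambled shRNA and 1.49 to 1.84 with NFIC shRNA, and the THBD to F3 ratio falls from 4.01 to 4.76 to 1.84 to 2.23.

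The other genes of these pathways were taken as 5 lists with 61 genes, of which 52 are in the table and 35 were tested. Of the 35, 14 were lower and 13 higher, beside the background of 30.3% and 29.6%.

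Of 17 clotting factors and thrombin receptors 12 are in the table, and 7 of those failed the filter, among them F2, F5, F7 and F10, the prothrombin, factor V, factor VII and factor X genes, which liver makes. In all 5 were tested, of which 2 were lower and none higher (median log2 fold change -0.34). The 2 were F2RL3, a thrombin receptor, with 2.69 ± 0.853 and 1.13 ± 0.254 CPM, and VWF, von Willebrand factor, with 1.24 ± 0.444 and 0.461 ± 0.126 CPM (SD, n = 3 each). Both fall outside the rule for named genes, and their values were known when they were picked. F2R, another thrombin receptor and the highest of the list, was at 6.06 ± 1.49 and 7.0 ± 0.868 CPM and did not pass (edgeR adjusted p = 0.295).

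On the list of natural anticoagulants 5 genes were tested, 2 lower and 2 higher. GAS6, listed as a vitamin K-dependent relative of protein S and not as an anticoagulant itself, was the highest of the list. It fell from 518 ± 56.6 to 181 ± 26.7 CPM (log2 fold change -1.52, edgeR adjusted p = 2.29e-06). A2M, the broad protease inhibitor alpha-2-macroglobulin, fell from 8.36 ± 1.33 to 4.71 ± 0.240 CPM. PROS1, protein S, rose from 26.0 ± 3.08 to 40.2 ± 3.46 CPM, and ANXA5, which covers the membrane phosphatidylserine that clotting needs, rose from 187 ± 7.54 to 292 ± 8.76 CPM (SD, n = 3 each).

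Of 9 tested genes of plasminogen activation and its inhibition, 4 were lower and 2 higher. SERPINE2, an inhibitor of thrombin and urokinase, fell from 14.7 ± 2.71 to 4.94 ± 0.813 CPM (log2 fold change -1.57, edgeR adjusted p = 1.68e-07). The partners of the plasminogen-binding annexin A2 heterotetramer went in opposite directions, with S100A10 at -0.63 and ANXA2 at 0.72 on the log2 scale. ENO1, an enolase that also binds plasminogen, was the highest of the list at 1028 ± 55.2 and 880 ± 42.8 CPM (log2 fold change -0.22). LRP1, an endocytic receptor that clears urokinase complexes, was higher by 0.29.

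All 8 genes of the vitamin K cycle and of factor secretion were tested, and 4 were lower and 4 higher. VKORC1, the reductase that warfarin blocks, fell from 31.6 ± 1.03 to 7.72 ± 0.880 CPM (log2 fold change -2.03, edgeR adjusted p = 1.97e-11), beyond the -1.86 of THBD, with 95% intervals that overlap (-2.23 to -1.84 and -1.99 to -1.73). GGCX, the carboxylase of the same cycle, and MCFD2, a cargo adaptor for factors V and VIII, were at -0.60 and -0.43. P4HB, PDIA3 and FURIN, which fold and cleave secreted proteins, were at 0.51, 0.38 and 0.30, and P4HB was the highest of the list at 1826 ± 19.7 and 2608 ± 47.9 CPM.

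Of 8 tested thrombospondins and their receptors, 2 were lower and 5 higher. CD36, a scavenger receptor that binds thrombospondin-1, fell from 18.8 ± 2.16 to 10.4 ± 0.125 CPM, and THBS3 was at -0.50 on the log2 scale. ITGAV, the integrin alpha V chain, rose from 81.0 ± 2.21 to 163 ± 10.5 CPM (log2 fold change 1.01, edgeR adjusted p = 1.62e-10), and THBS4 and CD47 were at 0.57 and 0.38. ITGB1, the integrin beta 1 chain, was the highest of the list at 347 ± 0.737 and 433 ± 18.5 CPM.

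**Figure D5:**
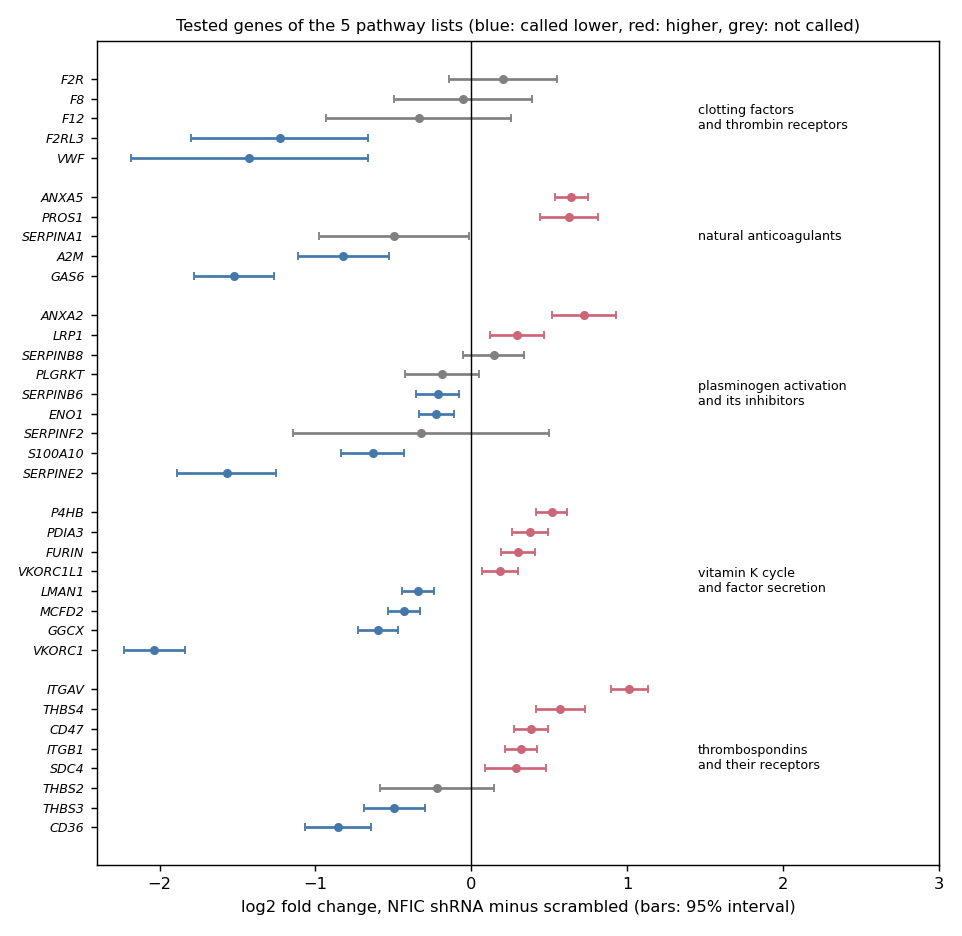
Log2 fold change of NFIC shRNA relative to scrambled for the 35 tested genes of the 5 pathway lists, 1 line a gene, with 95% intervals from edgeR. Blue marks genes called lower, red higher and grey not called. VKORC1 at -2.03 lies farthest to the left and ITGAV at 1.01 farthest to the right.

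The genes whose pattern over the 6 samples was nearest to a member were found by the root mean square difference of centred log2 CPM. For THBD they were APOC4-APOC2 and APOC2, which share reads, at 0.0460 and 0.0465. For F13A1 they were HORMAD1 at 0.0348 and NFIC itself at 0.0364. For F3 APBB2 was nearest, for SERPINB2 WNK2 and AC064807.1, for PLAU ISY1-RAB43 and PHETA1, and for PLAUR AC093012.1, all at 0.0529 or less. For PROCR, which has few counts, the nearest were TSPAN15 at 0.189 and BEND6 at 0.209. With 6 samples in 2 groups these values mostly state that the genes differ between the groups by a like amount.

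Markers of other cell types moved with the groups. The summed level of 11 macrophage markers was 250 to 280 CPM in the scrambled and 125 to 134 CPM in the NFIC shRNA samples, with APOE the highest and C1QB and C1QC at 3 counts or fewer in every sample. The 11 endothelial markers summed to 184 to 205 and 268 to 289 CPM, with PECAM1, which monocytes also express, the highest, and TEK, ROBO4 and EMCN at 3 counts or fewer. The 11 megakaryocyte and platelet markers summed to 22.4 to 23.7 and 25.6 to 27.9 CPM, and the 9 fibroblast markers to 7.84 to 8.78 and 3.49 to 4.27 CPM, with COL1A2, DCN and LUM at 3 counts or fewer. Of 3 tested macrophage markers 2 were lower and 1 higher, of 7 for megakaryocytes and platelets 3 were lower and 1 higher, of 6 for endothelium 3 were lower and 2 higher, and of 2 for fibroblasts 2 were lower and none higher. Over all genes tested these shares were 30.3% lower and 29.6% higher. The samples are sorted THP-1 cells, so these sums are levels of transcripts and count no cells of other types. Any link between these markers and the differences of the members was not tested.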

How the data were processed

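Bulk mRNA of 6 THP-1 samples was analysed from 1 deposited table. The authors trimmed reads with Trim Galore, mapped them to GRCh38 with STAR and made the deposited counts per gene with featureCounts. The authors' deposited FPKM values equal the counts per kilobase times 1 factor for each sample. Gene lengths are those of the table. Size-factor normalized counts and the authors' DESeq2 comparison (fold change, its error, p-values) were not used. Counts were fitted with edgeR 4.0.16 in R 4.3.3, with TMM factors, the default filter on low counts and the robust quasi-likelihood test, without a replicate block, and p was adjusted over 19182 genes by Benjamini-Hochberg. Alternatives used DESeq2 1.42.0 and limma 3.58.1. The tests were tried on simulated data. Positions come from GENCODE release 44 (GRCh38). The members and lists were chosen with earlier results of these data known. Named genes are NFIC, the members, from each of 5 lists up to 3 genes called in each direction with the largest changes and a mean log2 CPM of at least 1, the highest gene of each list, and for each called member the 2 genes of nearest pattern. Some genes chosen by this rule are not reported here. Leaving out samples, other scalings, filters, tools, blocks and an adjusted p of 0.01 were the alternatives. No pair of samples of the same group agreed within sampling noise.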

Additional observations from a re-analysis of the deposited data

How the results depend on the processing

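The calls of the 7 called members and of NFIC kept their direction and their side of the 0.05 threshold under all 15 alternatives, and the counts of 5 members lower and 2 higher did not change at an adjusted p under 0.01. PLAUR had the highest adjusted p among these alternatives, 0.0341 with upper-quartile normalization. Over the single samples left out, THBD ranged from -1.89 to -1.83, PROCR from -1.84 to -1.28, F3 from -0.84 to -0.64 and SERPINB2 from -0.62 to -0.42 in log2 fold change. THBS1, which was not called, changed sign to -0.022 with upper-quartile normalization and ranged from -0.14 to 0.20 over the samples left out, being below 0 without C3, without N1 or without N2, and the cause was not tested. The 5 pathway lists held 14 or 15 genes lower and 12 to 14 higher throughout. Upper-quartile normalization shifted the median log2 fold change of all genes by -0.06. Deviations of samples matched by the label numbers had correlations of 0.0563, -0.0862 and -0.0446. By the numbers in the sample names, with C4 set against N2, these were 0.0563, 0.145 and 0.0267. With 3 samples in each group such correlations cannot decide whether the samples were paired. With the label numbers as a replicate block 10983 genes were called in place of 11486, and with the numbers in the sample names as a replicate block 12099. With the former the adjusted p was 2.26e-09 for THBD and 0.0149 for PLAUR. The F3 to TFPI ratio was not run, since TFPI had under 10 counts in every sample. TFPI, THBS1 and PROCR rest on at most 88 counts in each sample.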
